A study of Oncorhynchus mykiss with 18 samples.

Results

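The H3K4me3 sites common to the testes of rainbow trout of different *Prdm9* genotypes were examined. They are the H3K4me3 peaks of TAC-3 narrower than 2500 bp that had at least 1 bp in common with an H3K4me3 peak of TAC-1, hereafter shared sites. They were thus chosen by the H3K4me3 peak positions of both animals and by the peak width in TAC-3. There were 35143 of them, among 48901 TAC-3 H3K4me3 peaks under this width, 50548 TAC-3 H3K4me3 peaks in all and 409541 peaks in the 7 lists of the series. The 13758 peaks under 2500 bp that met no TAC-1 H3K4me3 peak, hereafter private sites, served for comparison. TAC-3 carried the *Prdm9* alleles 2 and 6, TAC-1 the alleles 1 and 5, and RT-52 the alleles 1 and 2. All were males of the INRA-AUT strain, with testes at maturation stage III for TAC-3 and TAC-1 and IV for RT-52. H3K4me3 and H3K36me3 were measured by ChIP-seq in TAC-3 and TAC-1, and the single-stranded DNA bound by DMC1 was mapped by DMC1-SSDS in TAC-3, TAC-1 and RT-52. The authors merged 2 replicates into each list, so no error between replicates could be computed. Each genotype was 1 animal, and the animal and its *Prdm9* genotype cannot be told apart.

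H3K4me3 marks the promoters of most expressed genes, where it is deposited by SET1 and MLL methyltransferases. In germ cells of mice and humans, PRDM9 adds H3K4me3 and H3K36me3 to the nucleosomes around the DNA motif that its zinc fingers bind, and meiotic DNA double-strand breaks (DSBs) form there. DMC1 is the meiotic recombinase that coats the resected ends of these breaks, and H3K36me3 is otherwise found in the bodies of transcribed genes.

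The shared sites made up 71.9% of the TAC-3 H3K4me3 peaks under 2500 bp. Under uniform placement of each peak on its own chromosome, a share of 10.2% was computed. As this overlap defined the sites, it is given with no test. Of the shared sites, 35005 met a single TAC-1 peak and 138 met 2. Together they met 35052 TAC-1 peaks, which was 22.8% of the 153665 H3K4me3 peaks of TAC-1. The number of shared sites depended on the length of the TAC-1 list. It was 24346 when only the highest-scoring TAC-1 peaks were used, as many as the TAC-3 list holds. The closeness of the peaks of both animals was set in part by the rule, so it is described only. The overlap had a median of 577 bp and covered a median of 92.7% of the site, and the distance between the centers had a median of 117.5 bp. Reciprocal overlap of at least 25%, the criterion that the study used between samples, was met by 30265 sites (86.1%). Above the width limit, 1501 of the 1647 TAC-3 peaks of 2500 bp or more met a TAC-1 peak (91.1%). At the limit itself, 2 shared sites were 2499 bp wide, with TAC-3 scores of 102.75 and 307.5, and 1 peak left out was 2500 bp wide, with a score of 266.6. Only 7 sites overlapped their TAC-1 peak by 10 bp or less.

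The shared sites had a median width of 854 bp in TAC-3 (quartiles 383 and 1283 bp), and their TAC-1 peaks one of 878 bp (quartiles 387 and 1482 bp). The private sites were narrower, with a median of 389 bp. The score, which is the mean MACS2 score of the narrow peaks that the authors merged, was read only within a list. In the TAC-3 list, shared sites had a median score of 237 (quartiles 120.5 and 780), against 141 (quartiles 99 and 223) for private sites. In the TAC-1 list, the peaks met by shared sites had a median score of 583 (quartiles 311 and 1094), against 214 (quartiles 146 and 338) for the other TAC-1 peaks. Ranks of score in both lists had a Spearman correlation of 0.49 across the 35143 sites, and ranks of width one of 0.50. These are descriptions across sites, which share an animal within each list and are not replicates. The share of TAC-3 peaks that were shared was 62.1% in decile 1 of the TAC-3 scores (the lowest of 10 classes of equal size), lay between 61.6% and 63.9% in deciles 2 to 6, and was 98.5% in decile 10.

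**Figure D1:**
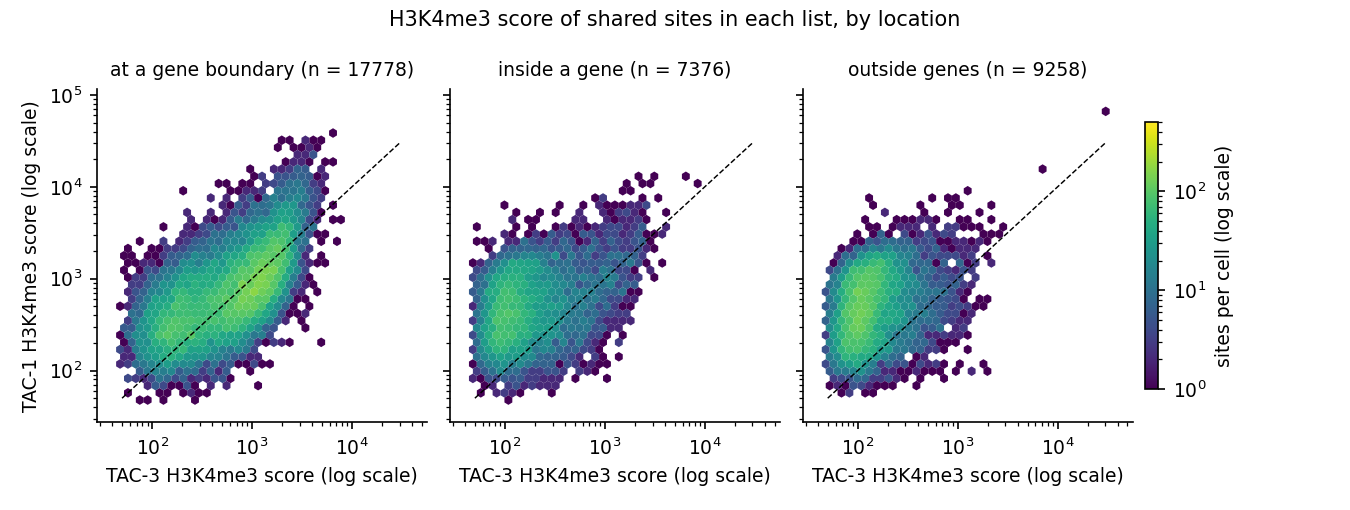
H3K4me3 score of each shared site in the TAC-3 list (horizontal, log scale) and of its TAC-1 peak (vertical, log scale), for sites at a gene boundary, inside a gene and outside genes. Color gives the number of sites per cell on a log scale. The dashed line marks equal scores as a visual guide only, because scores were read only within a list. Sites at gene boundaries extended to high scores in both lists (median of 667 in TAC-3), whereas those outside genes clustered at low TAC-3 scores (median of 123) over a wide range of TAC-1 scores.

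The shared sites were then placed relative to the genes of the RefSeq table of the USDA_OmykA_1.1 assembly. A gene boundary, that is, the first or last base of a gene ±1 kb, was met by 17778 of the 34412 shared sites on chromosomes (51.7%, 95% Wilson interval 51.1% to 52.2%), against 4678 of 13293 private sites (35.2%, 34.4% to 36.01%). The share was 47.1% over all TAC-3 peaks under 2500 bp on chromosomes, and uniform placement gave 10.7% for the shared sites. The difference between shared and private sites was significant (Fisher's exact test, two-sided, adjusted p = 1.2e-231). Intervals and p-values of this kind cover the counting of sites within these lists only, since neighboring sites of 1 animal are not independent. The difference depended on width. In the width class from 1000 to 1500 bp, a boundary was met by 70.0% of shared and 35.99% of private sites, but below 250 bp by 13.4% of shared and 27.0% of private sites, and from 250 to 500 bp by 29.2% of shared and 39.1% of private sites. All of these within-class differences passed the threshold (Fisher's exact test, adjusted over 56 tests, p from 1.13e-142 to 5.55e-20).

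Shared sites at gene boundaries were wide and strong. Their median width was 1076 bp and their median TAC-3 score was 667. The 7376 shared sites inside a gene, farther from its boundaries, had a median width of 551 bp and a median TAC-3 score of 139.5, and the 9258 sites outside genes had medians of 497 bp and 123. The corresponding TAC-1 peaks had a median score of 689 at gene boundaries, 472 inside genes and 503 outside genes. The remaining 731 shared sites were on scaffolds, where the gene table places no gene. The share of shared sites at a gene boundary was higher in each successive decile of TAC-3 scores, from 9.81% in decile 1 to 93.5% in decile 10. A shared site lay within 1 kb of a boundary of 18990 of the 40693 protein-coding genes on chromosomes (46.7%), of 20.1% of lncRNA genes, of 22.6% of snoRNA genes, of 2.13% of tRNA genes and of 1.52% of rRNA genes. Over all genes on chromosomes, it was 20479 of 54080 (37.9%).

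**Figure D2:**
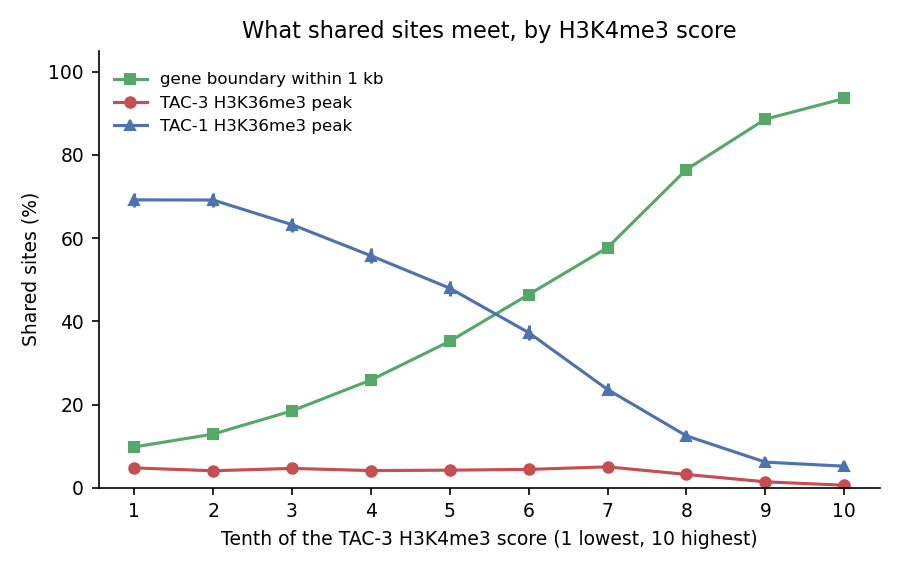
Share of shared sites (%) that met a gene boundary within 1 kb, a TAC-3 H3K36me3 peak or a TAC-1 H3K36me3 peak, in deciles of the TAC-3 H3K4me3 score (1 lowest, 10 highest). Vertical bars on the H3K36me3 points are 95% Wilson intervals. Gene boundaries were met by 9.81% of sites in decile 1 and 93.5% in decile 10, and TAC-1 H3K36me3 peaks by 69.2% in decile 1 and 5.20% in decile 10, while TAC-3 H3K36me3 peaks stayed at or below 5.04%.

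Lists of genes by function or cell type were then looked up, and no proportion was tested against another. Many listed names were not matched by symbol or synonym in the gene table, and counts are over those matched. Of 45 names of meiotic prophase genes, 23 were matched, and 22 of these had a shared site at a boundary (95.7%), with median scores of 748 in TAC-3 and 721 in TAC-1. For comparison with this and the following lists, the proportion was 56.5% over protein-coding genes that have a symbol. The median TAC-3 score of all 17100 shared sites at protein-coding boundaries was 686. List medians take only the highest-scoring site of each gene, which raises them relative to that value. The sites with the highest TAC-3 scores were at *mei4*, a partner of the machinery that makes DSBs (TAC-3 score of 2130, TAC-1 score of 4260), *brdt*, a bromodomain protein of male germ cells (1842 in TAC-3, 1584.5 in TAC-1), *smc1b*, a meiotic cohesin subunit (1817 in TAC-3, 9533 in TAC-1), and *dmc1* itself (1733 in TAC-3, 1302 in TAC-1). They were followed by *hells*, a chromatin remodeler (1513 in TAC-3), *sycp3* and *sycp1*, components of the synaptonemal complex (1241 and 1156.5 in TAC-3), and *mlh3*, which acts in crossover formation (1139 in TAC-3). The site at *spo11*, which encodes the catalytic subunit that cuts DNA and was singled out after its value was seen, had a score of 447 in TAC-3 and 849.5 in TAC-1. The remaining gene of this list, *brca2*, had only a private site. At the highest-scoring site of each of these 22 genes there was no TAC-3 H3K36me3 peak, and those of *smc1b* and *rec8b* met a TAC-1 H3K36me3 peak. These counts were near the shares over all shared sites at gene boundaries, 0.855% for TAC-3 and 9.00% for TAC-1 H3K36me3. Those shares include sites of any score. Among all shared sites, TAC-1 H3K36me3 was met by 69.2% in decile 1 of TAC-3 scores and 5.20% in decile 10.

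Among 22 genes of spermatids and of the sperm flagellum (of 30 names), 18 had a shared site (81.8%), with the highest TAC-3 score at *akap14* (3870 in TAC-3, 5518 in TAC-1), which encodes an anchoring protein of cilia and flagella. The next were *ccdc40*, required for the assembly of axonemal arms (2257 in TAC-3, 551 in TAC-1), and *spata6*, of the sperm neck (2136 in TAC-3, 697 in TAC-1). Of 19 germ cell genes (of 29 names), 11 had a shared site (57.9%), close to the 56.5% over protein-coding genes. They included *piwil1* (1189 in TAC-3) and *tdrd6* (882), which act in the piRNA pathway, and *dazl* (726) and *ddx4* (706), which encode RNA-binding proteins of germ cells. Genes of chromatin and histone methylation had a shared site in 10 of 15 cases (66.7%, of 39 names), and 2 others, *kmt2a* and *kmt2e*, had a peak of 2500 bp or more instead. They included *cxxc1b*, a subunit of the SET1 complexes (2404 in TAC-3), *setd2*, the methyltransferase of transcribed genes for H3K36me3 (1882), *kmt2d* (1879) and *ezh2*, which methylates H3K27 (1784). Of 26 housekeeping genes (of 51 names), 17 had a shared site (65.4%) and 3 a wider peak, with *rpl5a*, a ribosomal protein (2603 in TAC-3), and *emc7*, of the endoplasmic reticulum membrane (2592), at the top.

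Lists of other cell types were counted in the same way. Of 17 genes of neurons or muscle (of 36 names), 5 had one (29.4%), with TAC-3 scores from 124.5 to 237, and the highest was that of *neurod2*, a neuronal transcription factor (TAC-1 score of 616). The median TAC-1 score of these 5 sites was 522.5. Of 24 *hox* genes (of 49 names), 13 had one (54.2%), with a median TAC-3 score of 187 and a highest TAC-3 score of 631 at *hoxa9b*. Their median TAC-1 score was 690.5, near that of all shared sites at gene boundaries (689), which is not limited to the highest-scoring site of each gene. Among 16 genes of somatic cells of the testis (of 28 names), 4 had one (25%), namely *cyp17a1*, of steroid synthesis (2921 in TAC-3), *dmrt1*, of male differentiation (2009), *gata4* (841 in TAC-3, 7097 in TAC-1) and *insl3*, a Leydig cell hormone (243). Of 8 blood cell genes (of 26 names), *rag2* (1077), *spi1a* (602) and *cd8a* (170) had one (37.5%). A peak at a boundary can belong to a neighboring gene, since the gene table used here gives no strand, and the cell type of a peak in whole testis was not tested.

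H3K36me3 differed between the animals at the shared sites. A TAC-3 H3K36me3 peak was met by 1202 shared sites (3.42%, 3.24% to 3.62%) and by 2938 private sites (21.4%, 20.7% to 22.0%), with 8.47% over all TAC-3 H3K4me3 peaks under 2500 bp. Conversely, a TAC-1 H3K36me3 peak was met by 12285 shared sites (35.0%, 34.5% to 35.5%) and by 851 private sites (6.19%, 5.80% to 6.60%), with 26.9% over all. For the TAC-3 comparison, Fisher's exact test returned a two-sided p of 0 at the precision of the software. The p of the TAC-1 comparison is not given, because private sites hold no TAC-1 H3K4me3 peak by the rule. Uniform placement of the shared sites on chromosomes gave 4.76% for TAC-3 and 12.0% for TAC-1 H3K36me3. Both lists were met by 1059 shared sites (3.01%) and 512 private sites (3.72%), with 3.21% over all. This last difference was in the opposite direction among peaks under 1000 bp, with 3.34% of shared and 2.77% of private sites. The p of this comparison is not given either, because meeting both lists requires a TAC-1 H3K36me3 peak.

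The TAC-1 comparison was not free of the rule, because H3K4me3 and H3K36me3 peaks of TAC-1 largely coincided. Of all TAC-1 H3K4me3 peaks, 66.4% met an H3K36me3 peak of TAC-1, whereas 8.64% of all TAC-3 H3K4me3 peaks met one of TAC-3. A private site has no TAC-1 H3K4me3 peak by definition, and its part in the lower TAC-1 H3K36me3 share was not tested. The overlap of both marks in base pairs over their joint length (Jaccard index) was taken over unlike units in the animals. In TAC-3, its median was 0.431 over the shared sites that met a TAC-3 H3K36me3 peak (n = 1202 sites). In TAC-1, the units were the TAC-1 H3K4me3 peaks met by shared sites. Among those that met a TAC-1 H3K36me3 peak, the median was 0.854 (n = 14328 peaks). Not all of the shared sites at these peaks met the H3K36me3 peak themselves. The TAC-3 list held 40535 H3K36me3 peaks and the TAC-1 list 162044, and the lists give no read depth. The mapped read numbers tabulated by the study were not used here, and the part of depth in this difference was not tested. On sequences with an H3K36me3 peak, the nearest one was at a median of 20366 bp from the 33787 shared sites without overlap in TAC-3, and of 3686 bp from the 22837 without overlap in TAC-1.

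**Figure D3:**
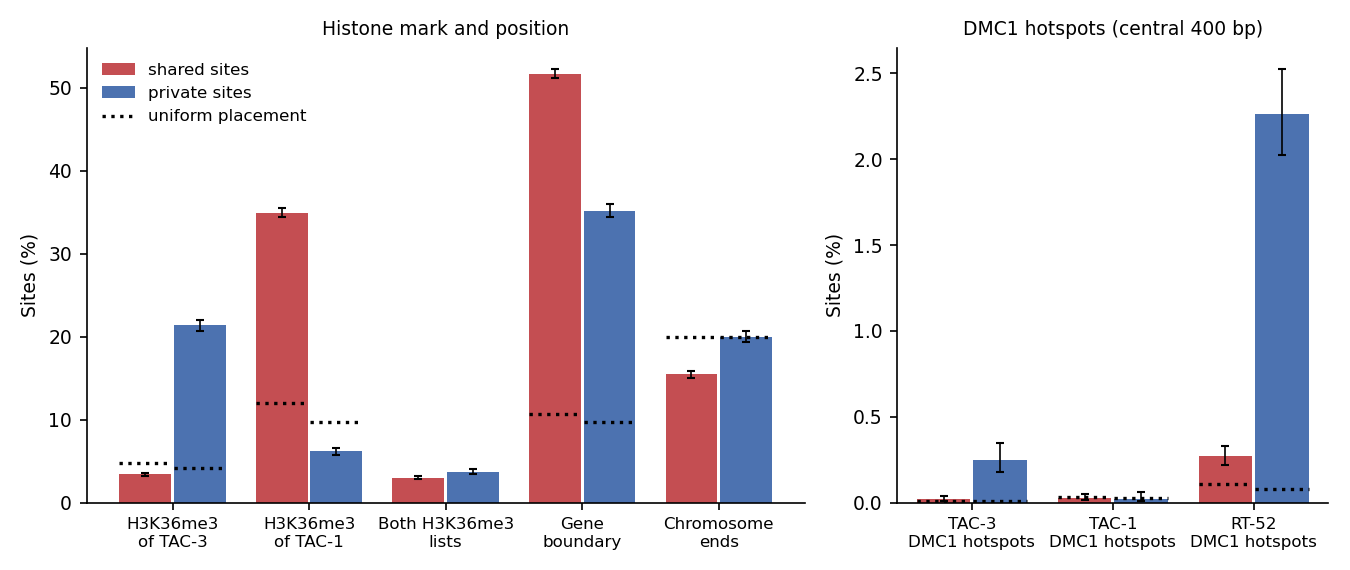
Share of shared sites (left bar of each pair) and private sites (right bar) that met H3K36me3 peaks, a gene boundary, the outer 10% of a chromosome at either end, or the central 400 bp of DMC1 hotspots. Error bars are 95% Wilson intervals and dotted lines give the share under uniform placement of the sites on chromosomes, which was not computed for both H3K36me3 lists together. Shared sites had the lower share for TAC-3 H3K36me3 (3.42% against 21.4%) and for RT-52 hotspots (0.270% against 2.26%), and the higher share for TAC-1 H3K36me3 (35.0% against 6.19%). The comparisons with TAC-1 H3K36me3 and with both H3K36me3 lists were not free of the rule, as private sites hold no TAC-1 H3K4me3 peak.

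H3K36me3 at shared sites followed their location. At gene boundaries, 0.855% of shared sites met a TAC-3 H3K36me3 peak and 9.00% a TAC-1 peak. Inside genes, these shares were 10.3% for TAC-3 and 57.1% for TAC-1, and outside genes 2.65% for TAC-3 and 66.8% for TAC-1. Private sites also differed by location, with TAC-3 H3K36me3 at 6.76% of those at boundaries, 38.2% inside genes and 19.4% outside genes. Sorted by H3K36me3, 22715 shared sites had none in either animal (64.6%), and 72.5% of those on chromosomes were at a gene boundary. H3K36me3 in TAC-1 only was found at 11226 shared sites (31.9%), of which 13.5% were at a boundary. These sites had a low median TAC-3 score of 121 and a median TAC-1 score of 671. The 143 sites with H3K36me3 in TAC-3 only had a median width of 1133 bp, while their TAC-1 peaks had a median width of 310 bp. With rising TAC-3 score, the share with TAC-1 H3K36me3 was 69.2% in decile 1 and 5.20% in decile 10, while that with TAC-3 H3K36me3 ranged from 0.623% to 5.04%. The H3K36me3 difference between shared and private sites had the same direction in every width class from below 250 bp to 2500 bp, for each animal. In TAC-3 it ranged from 5.97% of shared against 10.5% of private sites below 250 bp to 3.36% against 56.0% from 1500 to 2000 bp.

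Along the chromosomes, the shared sites were thinner toward the ends. Their density was 15.4 per Mb over the 32 chromosomes, and ranged between 11.8 per Mb on chromosome 26 and 18.1 per Mb on chromosome Y. Across chromosomes, this density was correlated with that of protein-coding genes (Spearman 0.71 and Pearson 0.60, n = 32 chromosomes of 1 animal, as a description). The outer 10% of the chromosome length at either end held 5319 shared sites (15.5%, 15.1% to 15.8%) and 2655 private sites (19.97%, 19.3% to 20.7%), with 16.7% over all and 20% of the length (adjusted p = 2.72e-31, Fisher's exact test). By width, this difference did not pass the threshold from 250 to 750 bp or from 2000 to 2500 bp, where 12.7% of shared and 16.9% of private sites were at the ends. Shared sites at gene boundaries were scarcer at the ends (13.5%) than those elsewhere (17.5%). Those elsewhere were at 0.987 times the uniform share in the outermost 5% of the length, and at 1.28 times between 40% and 45%. The nearest other shared site was at a median of 16824 bp, and 17.9% had one within 5 kb.

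**Figure D4:**
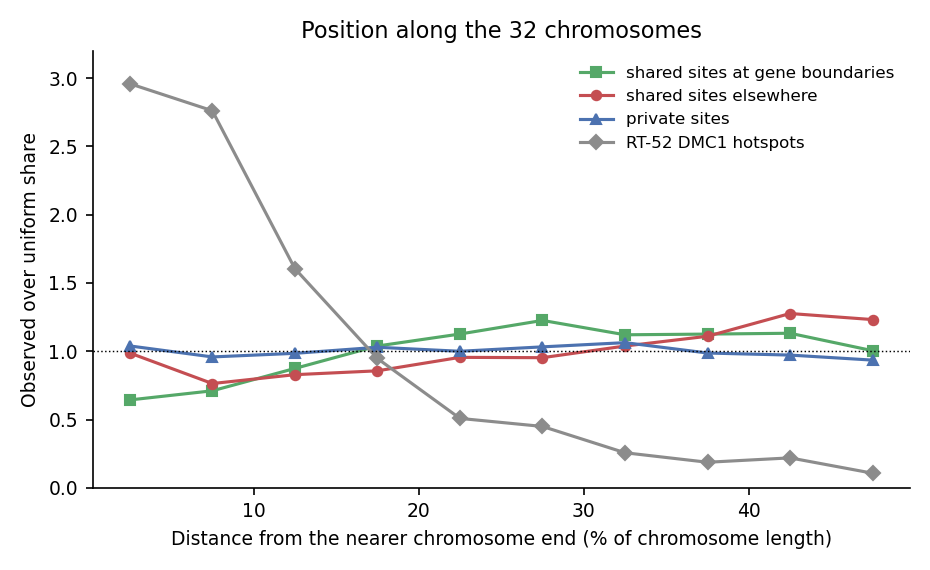
Observed share over the share under uniform placement (vertical) by distance from the nearer chromosome end, in steps of 5% of the chromosome length (horizontal), for shared sites at gene boundaries, shared sites elsewhere, private sites and RT-52 DMC1 hotspots. The dotted line marks uniform placement. RT-52 hotspots reached 2.96 in the outermost step, where shared sites at gene boundaries were at 0.643.

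Few shared sites met a DSB hotspot. TAC-3 hotspots were met by 7 shared sites (0.0199%, 0.00965% to 0.0411%) and 34 private sites (0.247%, 0.177% to 0.345%), with 0.0838% over all (adjusted p = 5.9e-13, Fisher's exact test). TAC-1 hotspots were met by 10 shared sites (0.0285%, 0.0155% to 0.0524%) and 3 private sites (0.0218%, 0.00742% to 0.0641%), with 0.0266% over all (adjusted p = 1, Fisher's exact test). At these counts a difference was not detectable, and private sites hold no TAC-1 H3K4me3 peak by definition. RT-52 hotspots were met by 95 shared sites (0.270%, 0.221% to 0.330%) and 311 private sites (2.26%, 2.03% to 2.52%), with 0.830% over all (adjusted p = 1.51e-91, Fisher's exact test). For RT-52, the share was lower at shared than at private sites in each of the 7 width classes (Fisher's exact test, adjusted p from 8.68e-47 to 7.33e-05). The TAC-3 difference did not pass the threshold in the classes below 750 bp, where no shared site met a TAC-3 hotspot. It passed in each class from 750 to 2500 bp (Fisher's exact test, adjusted p from 2.58e-07 to 0.00273). Seen from the hotspots, 7 of 209 TAC-3 hotspots (3.35%), 10 of 616 TAC-1 hotspots (1.62%) and 95 of 1924 RT-52 hotspots (4.94%) met a shared site. A private site was met by 16.3% of TAC-3, 0.487% of TAC-1 and 16.2% of RT-52 hotspots. The paper cautions that DMC1 peaks of TAC-3 that recur in TAC-1 could be artifacts, because they lacked the strand asymmetry of DSB hotspots. Such peaks count in the 209 and 616 and in the uniform placement below. Leaving them out changed no share of shared or private sites with a hotspot.

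The numbers of shared sites on chromosomes with a hotspot were then set against uniform placement of the sites, either on the whole chromosome or within the same 1/30 of it. For RT-52, 92 sites met a hotspot where 37.7 were computed, a ratio of 2.44, which was 3.07 within the same 1/30. For TAC-3, the 7 sites stood against 4.05, at ratios of 1.73 and 1.97 for the whole chromosome and the same 1/30. For TAC-1, the 10 sites stood against 12.0, at ratios of 0.830 and 1.05. Private sites on chromosomes were at 29.4 times the uniform share for TAC-3 hotspots, 0.861 times for TAC-1 hotspots and 27.7 times for RT-52 hotspots.

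RT-52 hotspots were most frequent at the few shared sites with H3K36me3 in TAC-3, which held 58 of the 95. They were met by 15 of the 143 shared sites with H3K36me3 in TAC-3 only (10.5%, 6.46% to 16.6%) and by 43 of the 1059 sites with H3K36me3 in both animals (4.06%, 3.03% to 5.42%). Of the sites with H3K36me3 in TAC-1 only, 14 met an RT-52 hotspot (0.125%, 0.0743% to 0.209%), and of those with none, 23 did (0.101%, 0.0675% to 0.152%). Ratios to uniform placement were computed over sites on chromosomes alone. They were 85.7 with H3K36me3 in TAC-3 only (15 of 137 sites), 39.4 in both animals (41 of 1017), 1.26 in TAC-1 only (13 of 10973) and 0.880 in neither (23 of 22285). Among private sites, the shares were 7.30% (6.33% to 8.40%) with H3K36me3 in TAC-3 only and 6.45% (4.63% to 8.91%) with H3K36me3 in both animals. These intervals overlapped those of the shared sites, which does not show that the shares are equal. Without H3K36me3 in either animal, 0.916% of private sites (0.751% to 1.12%) met an RT-52 hotspot, and their interval lay above that of the shared sites. Differences between these classes were not tested.

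**Figure D5:**
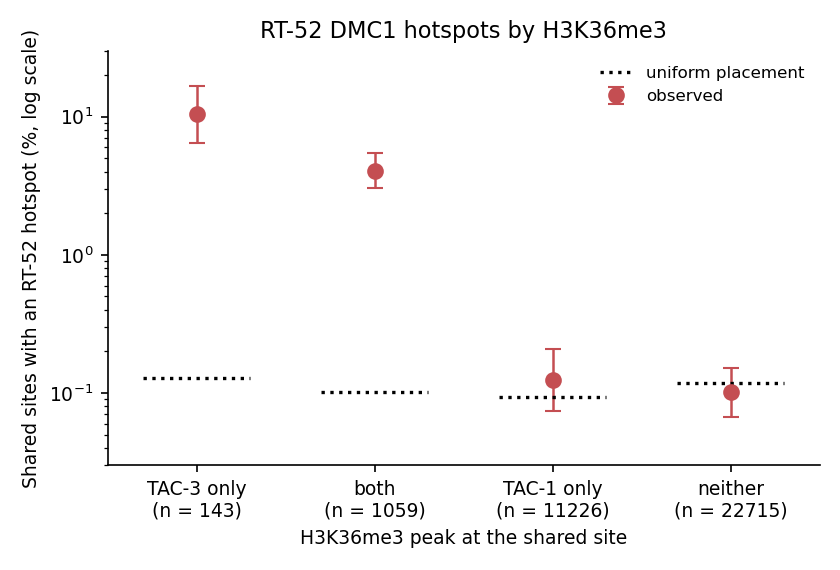
Share of shared sites (%, log scale) that met the central 400 bp of an RT-52 DMC1 hotspot, by the animals in which the site had an H3K36me3 peak. Points are observed shares with 95% Wilson intervals, and dotted lines the share under uniform placement of the sites on chromosomes. Sites with H3K36me3 in TAC-3 only or in both animals were at 10.5% and 4.06%, and the other sites were within counting error of uniform placement.

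The 95 shared sites with an RT-52 hotspot had a median width of 1369 bp, against 852 bp for the other shared sites. They were chosen by overlap, which under uniform placement is likelier for a wider site. RT-52 hotspots were met by 0.0733% of shared sites below 250 bp and by 1.27% from 2000 to 2500 bp. The 95 sites had median scores of 287.5 in TAC-3 and 354 in TAC-1, against 237 and 583 for the other shared sites. On chromosomes, 59 of 92 lay in the outer 10% at either end (64.1%), against 15.3% of the other shared sites, while 57.2% of all RT-52 hotspots on chromosomes lay there. A gene boundary was met by 32 of the 92 (34.8%), against 51.7% of the others. The RT-52 hotspot values of the authors had a median of 113 at these sites, 103 at private sites and 90 at hotspots that met neither. The order was not the same in the other lists. For TAC-3 hotspots, these medians were 49 at 7 shared sites, 58 at private sites and 58.5 at the others. For TAC-1 hotspots, they were 44 at 10 shared sites, 75 at 3 private sites and 58 at the others.

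The shared sites with the highest hotspot values were inspected individually. The highest RT-52 value was 1421, at a site on chromosome 5 (456139 to 457552) that covers a boundary of the protein-coding gene *LOC110523071*. It had TAC-3 and TAC-1 H3K4me3 scores of 1885 and 1237 and no H3K36me3 peak in either animal. The next were on chromosome 16 (69458314 to 69460363, RT-52 value of 1060) and chromosome 5 (98475544 to 98476736, value of 981). Both lay outside genes with H3K36me3 in both animals, and their TAC-1 H3K4me3 peaks were narrow, at 505 and 284 bp, against site widths in TAC-3 of 2050 and 1193 bp. The site on chromosome 32 (1652471 to 1654677), 4406 bp from *klhl38a*, met hotspots of RT-52 (value of 804) and TAC-3 (value of 91) and had H3K36me3 in both animals. That on chromosome 2 (863025 to 864408), inside *cmc1*, met hotspots of RT-52 (766) and TAC-3 (125), which was the highest value among the 7 sites with a TAC-3 hotspot. This site had an H3K36me3 peak in TAC-1 only. Its TAC-1 H3K4me3 peak was 140 bp wide, against 1384 bp in TAC-3.

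Of the 7 sites with a TAC-3 hotspot, 4 also met an RT-52 hotspot, namely the sites in *cmc1*, near *klhl38a*, in *LOC110508063* on chromosome 27 (RT-52 value of 468) and in *LOC110499391* on chromosome 20 (value of 41). Of these 7 sites, 4 were inside a gene, 2 outside genes and 1, in *LOC110503083* on chromosome 23, at a boundary. Of the 10 sites with a TAC-1 hotspot, 4 were at a gene boundary (*triqk*, *fam167ab*, *LOC110494404* and *LOC118936349*), and none of these 4 had H3K36me3. The highest TAC-1 value, 142, was on chromosome 3 (77622775 to 77623344) outside genes. There, the TAC-1 peaks of H3K4me3 and H3K36me3 were 708 and 466 in score within their own lists. The H3K4me3 score in the TAC-3 list was 98. A single site met hotspots of TAC-1 and RT-52, on chromosome 17 (91820056 to 91820420), with values of 79 and 245 and H3K36me3 in both animals. No shared site met hotspots of both TAC-3 and TAC-1.

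The highest H3K4me3 scores were found at varied locations. The top score in both lists was at a 332 bp site on chromosome 7 (7575521 to 7575852), 5428 bp from the rRNA gene *LOC118965425*, with scores of 31583 in TAC-3 and 72767 in TAC-1. It also held the highest H3K36me3 score of TAC-1, 39300. The next TAC-3 scores, 12382 and 8991, were on scaffolds, followed by 8413 inside *LOC118943865* on chromosome 2 and 7332 at a boundary of *LOC110517701* on chromosome 19. In TAC-1, the second highest score among shared sites, 38573, was at a boundary of *otud5a*, a deubiquitinase gene, on chromosome 16 (66658986 to 66660155, TAC-3 score of 6369). Ranks 4 and 5 were at boundaries of *LOC110507071* on chromosome 27 (34179) and *LOC110492720* on chromosome 16 (32766). The shared sites with the highest TAC-3 H3K36me3 scores, 4011, 2573.5 and 1929, were on scaffolds and inside *LOC110532734* on chromosome 9, and all 3 also had H3K36me3 in TAC-1, with scores of 30338, 15009 and 7261.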

How the data were processed

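DMC1-SSDS (3 animals) and H3K4me3 and H3K36me3 ChIP-seq (TAC-3 and TAC-1) gave 7 deposited lists from 18 samples, inputs included. For histone marks, the authors aligned reads to USDA_OmykA_1.1 with BWA 0.7.17-r1188, called narrow peaks with MACS2 2.2.7.1 per replicate against an input, merged peaks within 1000 bp and kept regions found in both replicates with bedtools. The deposited score of such a region averages the MACS2 scores of its narrow peaks. For DMC1, the authors called peaks with MACS2, filtered them by irreproducible discovery rate and recentered them, and the lists do not name the deposited value. The lists hold no read counts, the mapped read numbers that the study tabulates were not used here, and intervals rest on the number of sites alone.

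Overlaps (at least 1 bp, central 400 bp of hotspots, full histone peaks) were computed with SciPy 1.17.1, pandas 2.3.3 and numpy 2.4.6 (Python 3.11.15), checked against bedtools 2.31.1 and tested on simulated data. Figures were drawn with matplotlib 3.10.9. Shares at shared and private sites were compared by Fisher's exact test (two-sided), with Benjamini-Hochberg adjustment over 8 comparisons, or over 56 in 7 width classes, and 95% Wilson intervals. Shares under uniform placement were computed exactly from peak widths and gaps, without simulation. Chromosome length was taken as the last position of a peak or gene. The 32 assembled sequences were matched to the chromosomes of the RefSeq table by the share of TAC-3 H3K4me3 peaks at gene boundaries, with at least 41.4% for the matched chromosome and at most 18.8% for any other. Of 72772 genes, 54080 were placed. Both boundaries of each gene stood in for transcription start and end sites. Sites named were the 5 with the highest TAC-3 and TAC-1 H3K4me3 scores, those with a hotspot (all up to 10, otherwise the 5 highest) and the 3 with the highest TAC-3 H3K36me3 scores. Genes named were up to 8 per list, by TAC-3 score, found by symbol or synonym, with others counted. The genes *spo11*, *brca2*, *rec8b*, *kmt2a* and *kmt2e* and the extreme chromosomes fall outside this rule and were chosen after their values were seen. Members and gene lists were chosen with earlier results of these data known. Alternatives concerned the overlap, the TAC-1 list, width, score, scaffolds, distance, part of the site compared, hotspot length and placement. No genome sequence was used here.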

Additional observations from a re-analysis of the deposited data

Results flagged for a closer look

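The H3K36me3 difference between shared and private sites had opposite signs in the animals. It was -17.9 percentage points for TAC-3 H3K36me3 (3.42% of shared and 21.4% of private sites) and 28.8 percentage points for TAC-1 H3K36me3 (35.0% of shared and 6.19% of private sites). The difference between the animals was not tested, since each had 1 list. By the rule, private sites hold no TAC-1 H3K4me3 peak, so the TAC-1 difference was not free of it. The part of the coincidence of both marks in TAC-1, where 66.4% of H3K4me3 peaks met an H3K36me3 peak against 8.64% in TAC-3, was not tested.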

How the results depend on the processing

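Of 76 alternatives to the number of shared sites and the 8 comparisons, 72 kept the direction and the side of the threshold, or a count within 1.5 times. The tally includes 9 alternatives each for TAC-1 H3K36me3 and for both H3K36me3 lists, of which 9 and 8 were kept. These comparisons were not free of the rule. Restriction to chromosomes could not alter the gene boundary comparison, which was already limited to them. Leaving out hotspots common to TAC-1 and TAC-3 altered no hotspot comparison. The number of shared sites was 20921 with a limit of 1000 bp and 19780 with only TAC-3 peaks at or above the median score, where fewer peaks enter by construction. With the TAC-1 list cut to the length of the TAC-3 list it was 24346, against 35143, which was counted as kept. The share with both H3K36me3 lists was 0.57 percentage points higher at shared than at private sites below 1000 bp, against -0.71 points under 2500 bp. The p-values of this comparison are not given, because it was not free of the rule. The TAC-1 hotspot difference was -0.00386 points, against 0.00665 in the full comparison, with the TAC-1 list cut to the length of the TAC-3 list, without passing the threshold in either case. The gene boundary difference of 16.5 points was 3.10 below 1000 bp and 37.0 at or above the median score. The TAC-1 H3K36me3 difference of 28.8 points was 6.80 at or above the median score and 18.0 with reciprocal overlap, and the TAC-3 difference of -17.9 ranged from -33.3 to -11.6. Their causes were not tested. The RT-52 ratio to uniform placement was 2.44 on the whole chromosome and 3.07 within the same 1/30. No paired analysis was possible because each list merges both replicates, and for the same reason no replicate could be left out. Rare overlaps with TAC-3 and TAC-1 hotspots (7 and 10 sites) limit what could be detected.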
